A study of Homo sapiens with 12 samples.

Results

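NGI-1 is a small molecule that blocks the oligosaccharyltransferase (OST) complex, and the results concern a human myeloma line, labelled MM1S, after 3 days in 10 μM NGI-1. The 3 libraries of day 3 were compared with the 3 libraries labelled 0 day, which are 6 of the 12 libraries of the study. The other 6 libraries were taken after 2 and 5 days in NGI-1. The 0 day libraries also carry NGI-1 as their treatment label, and they are called untreated here because the paper sets them against the treated days as its control. No library is labelled as cells kept for 3 days without the drug, so 3 days in culture and 3 days in NGI-1 cannot be told apart. No label says whether the 3 libraries of a group came from separate cultures, so p-values measure only the spread between these libraries. Genes entered the comparison when they had at least 1 TPM (transcripts scaled to a fixed total, a length-corrected share of a library) in at least 3 of the 12 libraries, which 11939 of the 59276 features of the deposited table did.

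Proteins that enter the endoplasmic reticulum (ER) receive a preassembled sugar chain on asparagine residues, and the OST complex moves that chain from its dolichol carrier onto the protein. Its catalytic subunits are STT3A, which works beside the translocon while the protein is still being made, and STT3B, which reaches sites that were missed. Myeloma cells are malignant plasma cells that make and secrete large amounts of immunoglobulin, and they carry many N-glycosylated receptors on their surface. When unfolded protein builds up in the ER, the sensors IRE1, PERK and ATF6 switch on chaperone, degradation and stress genes. Cells that leave the division cycle turn down the E2F and the B-MYB and FOXM1 programs, which cover DNA synthesis and mitosis. Interferon signalling switches on genes that carry interferon-response elements in their promoters.

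The plasma cell markers of these libraries were present, but the genes that mark this particular line were not all found at the level its name implies. MM1S is known as a line with a lambda light chain and a translocation that raises MAF. The lambda constant gene IGLC2 stood at 2.90, 2.09 and 3.44 TPM in the untreated libraries, and IGLC3 was listed at 0 in 2 of the 3 and at 0.456 TPM in the other. IGLC1 held 552, 507 and 560.1 TPM. The kappa constant gene IGKC had the highest mean of all features in the untreated libraries, at 26953, 23747 and 25082 TPM. MAF stood at 9.31, 8.89 and 8.46 TPM, and the receptor tyrosine kinase gene FGFR3 at 287, 265 and 301 TPM. The light chain transcripts of these libraries were therefore mostly kappa, against the line's known lambda chain, and the cells are called "labelled MM1S" throughout. IGKC, IGLC1 and FGFR3 were looked at for this check after values had been seen. The plasma cell marker SDC1, which encodes syndecan-1 (CD138), stood at 496, 478 and 512 TPM, and the transcription factor gene IRF4 at 202, 205 and 169.99 TPM. Of the 8 markers of T cells, 8 of myeloid cells, 6 of stromal cells and 5 of erythroid cells, 1 passed the filter on low values, the T cell gene CD3E at 2.75, 2.93 and 3.32 TPM. CD3E stood at 4.92, 7.22 and 5.23 TPM at day 3 and was called higher on both scales. Of the 8 B cell markers, CD79B and FCER2 passed the filter. FCER2 stood at 0.312, 0.065 and 0.0505 TPM and then at 2.03, 2.30 and 1.73 TPM, called higher on both scales. It passed the filter only through treated libraries. CD79B, at means of 10.6 and 9.99 TPM, was called higher only after rescaling. The part of these markers in the results was not tested. The same pattern of light chain genes held at day 3, when IGKC stood at 14394, 17021 and 13969 TPM and IGLC2 at 3.71, 3.44 and 2.89 TPM.

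The measure itself moved between the groups. A TPM value is a share of each library, and the shares were redistributed: cytoplasmic ribosomal protein transcripts held between 28.7% and 29.8% of all TPM in the untreated libraries and between 40.6% and 44.7% at day 3, and the 20 most abundant features held between 21.7% and 22.3% and then 34.5% to 34.7%. The median log2 fold change over all tested features was -0.73, so a gene at 0 on the deposited scale lay above most others. Each result is therefore given on the deposited scale and after rescaling, in which 1 factor per library was divided out so that the median gene lay at the average of all libraries, judged on the 5433 features that averaged 10 TPM or more. After rescaling the median was -0.03, a shift of 0.71. TPM keeps no count of reads, so neither scale says how much RNA a cell held, and fewer cells of a kind and less RNA per cell cannot be told apart in bulk libraries. The factors of the day 3 libraries were 0.808, 0.891 and 0.768, against 1.49 to 1.505 untreated and 1.26 to 1.30 at day 2, so replicate 2 of day 3 lay nearest to the earlier groups.

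At day 3, 7341 features (61.5% of those tested) were called lower than in untreated cells and 906 (7.59%) higher. Calls required an absolute log2 fold change above 0.5 together with a Benjamini-Hochberg adjusted p below 0.05, from limma fitted to all 4 groups. After rescaling 2887 (24.2%) were called lower and 2847 (23.8%) higher. All of those 2887 were also called lower on the deposited scale, and 904 of the 906 called higher stayed called higher. Another 4454 features called lower lost the call when rescaled, and 1943 uncalled features became called higher. Rescaling moved every feature upward or left it in place, so these overlaps follow from its construction. The values of the untreated and the day 3 libraries did not overlap for 9734 features (81.5%). On the deposited scale 180 features fell by more than 3 on the log2 scale and 24 rose by as much, and after rescaling these were 97 and 43.

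**Figure D1:**
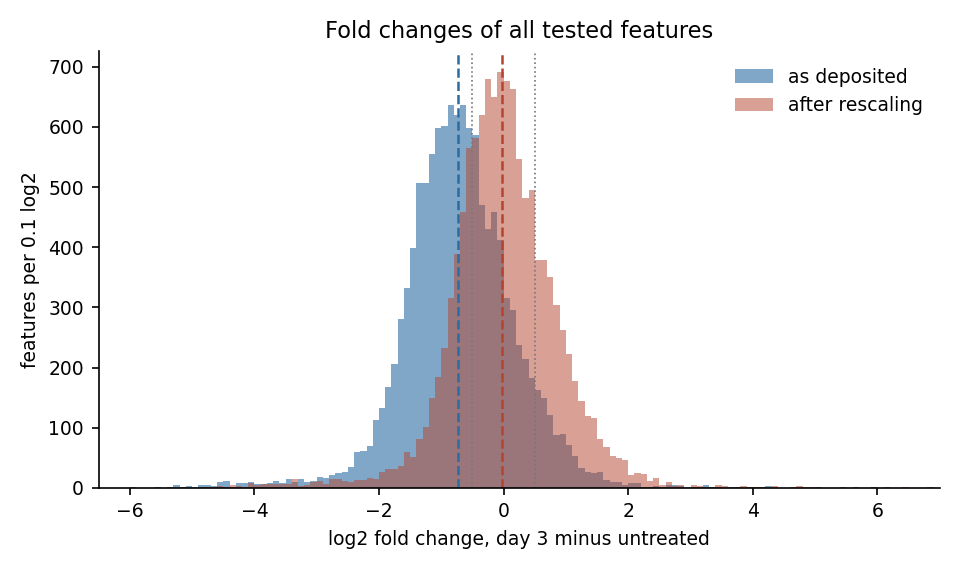
Number of tested features (y axis, per 0.1 log2) by log2 fold change of day 3 against untreated cells (x axis), on the deposited scale (blue) and after rescaling (red). Dashed lines mark the medians, -0.73 and -0.03, and dotted lines the calling threshold of 0.5 in either direction.

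The largest falls were in genes of nucleotide supply, DNA copying and cell division. RRM2, the regulatory subunit of ribonucleotide reductase, stood at 486, 450.4 and 463 TPM in untreated cells and at 4.87, 7.64 and 7.39 TPM at day 3. This was 70.3 times lower in mean TPM, with a log2 fold change of -5.96 ± 0.15 (SE, n = 3 and 3; adjusted p = 1.87e-12) and of -5.13 after rescaling. TYMS, which makes the thymidine nucleotide, fell from 135, 148 and 137 TPM to 1.94, 2.63 and 1.54 TPM. Its log2 fold change of -5.55 ± 0.14 (SE; adjusted p = 1.87e-12) was matched by the salvage kinase TK1, also at -5.55. MYBL2, which encodes the transcription factor B-MYB, went from 277, 261 and 263 TPM to 5.77, 6.92 and 5.07 TPM, a log2 fold change of -5.28 ± 0.11 (SE; adjusted p = 5.89e-13). Groups without overlap were a condition for naming the largest falls and rises, so the separation of these libraries was fixed by the choice. The other genes among the 12 largest falls were ARHGAP11A, NUSAP1, CDCA5, PLK1, TPX2, CDC20, BUB1B and AURKB, most of which act on the spindle, the kinetochore or sister chromatid cohesion.

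The cell division lists fell nearly as a whole. All 65 tested genes of mitosis and the kinetochore were called lower on both scales, with a median log2 fold change of -4.03 (-3.32 after rescaling) beside the -0.73 of all features. The summed level of these genes was 3790 to 3932 TPM in untreated cells and 208 to 240.4 TPM at day 3. PLK1, a kinase of mitotic entry, went from 69.8, 72.3 and 64.5 TPM to 0.67, 0.935 and 1.03 TPM. The smallest fall in this list was that of BUB3, a checkpoint protein named after its value was seen, at -1.82. Of 41 DNA replication genes, 40 were called lower on both scales, with a median of -3.25 (-2.43 after rescaling). MCM4, a subunit of the replicative helicase, stood at 133, 133 and 130.3 TPM and then at 3.58, 4.55 and 2.65 TPM, 36.8 times lower. The exception was RPA3, a subunit of the single-strand binding complex, at 20.6, 28.0 and 24.1 TPM untreated and 19.2, 18.2 and 22.2 TPM at day 3, with overlapping groups; it was not called on the deposited scale and was called higher at 0.56 after rescaling.

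Regulators upstream of these genes fell too. All 20 tested E2F and G1/S regulators were called lower as deposited and 18 after rescaling, where RB1 (-0.26) and RBL2 (-0.09), both pocket proteins that restrain E2F, were the ones no longer called. FOXM1, which drives mitotic genes, went from a mean of 35.2 TPM to 0.419 TPM, and E2F1 from 21.6 to 1.22 TPM. Of 14 genes of deoxynucleotide synthesis, 12 were called lower, and 9 after rescaling. RRM2B, the p53-induced partner that takes the place of RRM2 in resting cells, stood at 11.3 TPM untreated and 13.3 TPM at day 3 and was not called as deposited. Of 16 DNA methylation and Polycomb genes, 13 were called lower and 0 higher in limma, and 9 lower and 1 higher after rescaling. Among those that act on chromatin marks at replication, UHRF1 went from 36.9 to 0.368 TPM, DNMT1 from 58.0 to 7.79 TPM and EZH2 from 39.5 to 4.60 TPM, each called lower on both scales.

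Genes that restrain growth did not move as 1 group. Of 20 tested, 9 were called lower and 3 higher as deposited, beside 61.5% and 7.59% of all features. After rescaling 1 was called lower and 9 higher, beside 24.2% and 23.8% of all features. The list medians were -0.51 and 0.33, above those of all features. CDKN1A, which encodes the inhibitor p21, stood at 37.3, 34.6 and 37.0 TPM untreated and at 7.35, 8.07 and 7.70 TPM at day 3. It was called lower on both scales, at -2.10 and -1.28. CDKN1B, which encodes p27, stood at 25.1, 27.2 and 23.6 TPM and then at 35.6, 32.5 and 33.2 TPM. The groups of CDKN1B did not overlap, but its log2 fold change of 0.40 ± 0.13 (SE; adjusted p = 0.0101) lay under the calling threshold as deposited, and it was called higher at 1.24 after rescaling. PDCD4, a translation inhibitor, rose from a mean of 10.7 TPM to 41.3 TPM and was called higher on both scales.

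**Figure D2:**
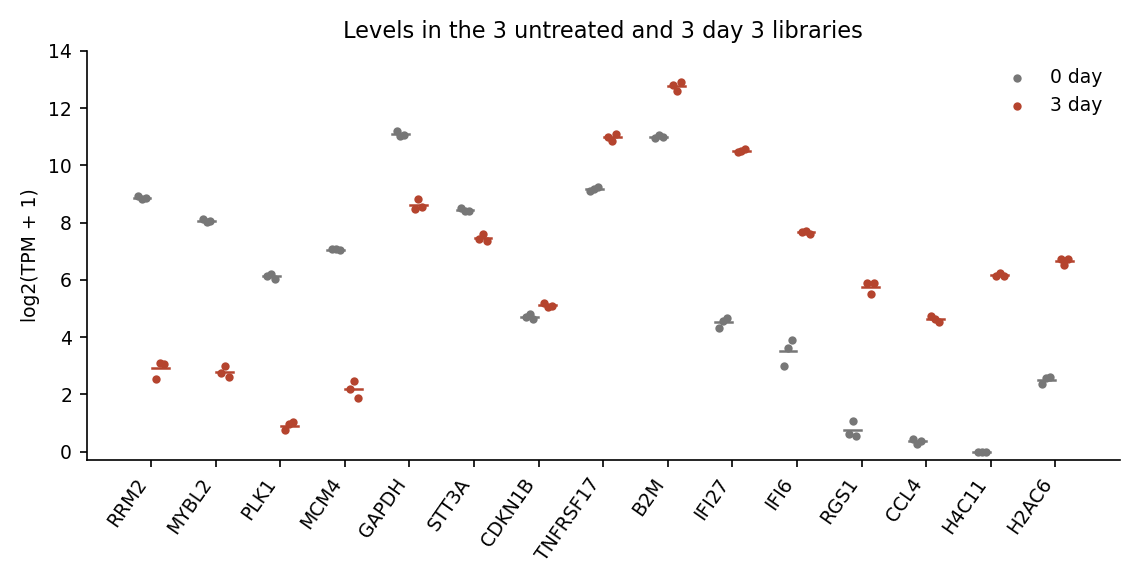
Log2 of TPM plus 1 (y axis) in each of the 3 untreated (grey) and 3 day 3 (red) libraries for 15 genes (x axis), on the deposited scale, with a bar at each group mean. The points of the groups do not overlap for any gene shown, which was a condition for those named as largest falls and rises. RRM2 and IFI27 move by about the same amount in opposite directions, -5.96 and 5.99.

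The promoters of RRM2, NUSAP1, TYMS, IFI27 and IFI6 are shown. Genes were taken by fold change from the largest falls and rises, and only if their window held at least 1 match. TK1 and ARHGAP11A were passed over for lacking a window or a match. That the windows shown held motifs was therefore fixed by the choice. The windows come from RefSeq on GRCh38.p14 and run 5′ to 3′ on the strand of the gene. Each goes from 250 bases before to 50 bases after an annotated start, with the matches in capitals. The motifs searched on both strands were the CHR element of late cell cycle genes (TTTGAA or TTCGAA), the E2F octamer (TTTCCCGC, TTTGGCGC, TTTGCCGC or TTTCGCGC), the CCAAT box (CCAAT) and an interferon-response core (GAAANNGAA), and matches of different motifs may overlap. The RRM2 window is chr2:10122489-10122788 on the plus strand, the NUSAP1 window chr15:41332631-41332930 on the plus strand and the TYMS window chr18:657403-657702 on the plus strand.
RRM2: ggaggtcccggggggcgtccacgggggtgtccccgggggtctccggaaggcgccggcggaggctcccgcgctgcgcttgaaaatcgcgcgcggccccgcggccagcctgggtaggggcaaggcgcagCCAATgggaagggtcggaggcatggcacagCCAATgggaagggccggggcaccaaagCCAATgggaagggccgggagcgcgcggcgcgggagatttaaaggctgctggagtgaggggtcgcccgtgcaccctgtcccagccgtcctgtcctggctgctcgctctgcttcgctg
NUSAP1: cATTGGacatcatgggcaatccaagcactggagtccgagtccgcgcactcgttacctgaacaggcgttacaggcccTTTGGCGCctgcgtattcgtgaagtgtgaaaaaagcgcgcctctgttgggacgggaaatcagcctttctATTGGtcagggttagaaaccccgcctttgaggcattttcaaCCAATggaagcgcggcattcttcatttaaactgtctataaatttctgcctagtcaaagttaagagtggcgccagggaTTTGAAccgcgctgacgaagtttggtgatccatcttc
TYMS: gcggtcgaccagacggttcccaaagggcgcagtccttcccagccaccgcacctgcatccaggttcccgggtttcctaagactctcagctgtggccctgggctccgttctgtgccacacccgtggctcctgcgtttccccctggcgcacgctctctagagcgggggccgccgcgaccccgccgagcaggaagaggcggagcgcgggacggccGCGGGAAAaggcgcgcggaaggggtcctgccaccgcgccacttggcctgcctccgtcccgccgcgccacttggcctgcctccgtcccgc
The RRM2 window held 3 CCAAT boxes, and the NUSAP1 window held 3 CCAAT boxes, 1 E2F octamer and 1 CHR element just past its start. The TYMS window held 1 E2F octamer.

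Among the promoters, 27305 symbols had a window, and the first window listed was read for each, including 8941 of the tested features. A CHR element was in 39 of 57 windows of the mitosis and kinetochore genes (68.4%), against 16.6% of all windows and 10.8% of the windows of tested features. A CCAAT box was in 42 of the same 57 windows (73.7%), against 35.7% of all windows. An E2F octamer was in 18 of 35 windows of DNA replication genes (51.4%), against 3.33% of all windows. Deoxynucleotide synthesis genes, RRM2 among them, had 12 windows. Of these, 4 (33.3%) held a CCAAT box, 1 (8.33%) a CHR element and 2 (16.7%) an E2F octamer. Over all features called lower after rescaling, 14.8% of windows held a CHR element and 7.90% an E2F octamer, so most features called lower held neither. The motifs were not particular to lists that fell. In the 18 windows of replication-dependent histone genes, most of which were called higher after rescaling, a CHR element was in 8 (44.4%), an E2F octamer in 5 (27.8%) and a CCAAT box in 15 (83.3%), and a CCAAT box was in 17 of 19 ER chaperone windows (89.5%). A match is a run of letters in a window and no measure of binding.

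The largest rises were led by interferon-stimulated genes, chemokine and signalling genes, histone genes and small nuclear RNAs. IFI27, a mitochondrial protein gene long used as a marker of interferon exposure, stood at 18.8, 22.4 and 24.7 TPM in untreated cells and at 1423, 1433 and 1509 TPM at day 3. This was 66.2 times higher in mean TPM, with a log2 fold change of 5.99 ± 0.08 (SE; adjusted p = 1.4e-14) and of 6.83 after rescaling. IFI6, a related antiviral gene, rose from 6.89, 11.3 and 13.8 TPM to 203, 207 and 195 TPM, a log2 fold change of 4.16 ± 0.18 (SE; adjusted p = 1.93e-10). Both genes ranked among the 12 largest rises, for which groups without overlap were again a condition.

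Interferon-stimulated genes rose broadly, but not all of them did. Of 40 tested, 32 were called higher and 1 lower as deposited, and 38 higher and 0 lower after rescaling, with a median log2 fold change of 1.27 (1.99 after rescaling). Of the 40, 10 were under 1 TPM in every untreated library and passed the filter only through treated libraries, so the count and median are a description. Their summed level was 661 to 728 TPM in untreated cells and 3256 to 3451 TPM at day 3. The member called lower was IRF1, a transcription factor of the interferon gamma response, at 27.1, 25.1 and 26.4 TPM untreated and 16.4, 20.4 and 15.3 TPM at day 3; its fall of -0.57 became 0.25, not called, after rescaling, and was under the threshold without 3 day replicate 3 (-0.49). IRF9 and STAT2, which act in interferon signalling itself, are named here after their values were seen. IRF9 rose from a mean of 15.4 TPM to 74.4 TPM and was called higher on both scales, whereas STAT2 stood at 16.1 and 13.8 TPM and was not called as deposited. TNFSF10, which encodes the death ligand TRAIL and is an interferon target, went from 0.224, 0.196 and 0.147 TPM to 7.80, 7.92 and 7.81 TPM. It too passed the filter only through treated libraries.

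The windows of IFI27 and IFI6 were chosen in the same way, among windows that held a match of any motif. RNU2-2P, RGS1, CCL4, RNU1-1 and RNVU1-7, which rose more than IFI6, were passed over for lacking a window or a match. The window of H4C11, chosen with them, held 1 CHR element and no interferon-response core and is not printed. IFI27 is shown at chr14:94110486-94110785 on the plus strand and IFI6 at chr1:27672143-27672442 on the minus strand.
IFI27: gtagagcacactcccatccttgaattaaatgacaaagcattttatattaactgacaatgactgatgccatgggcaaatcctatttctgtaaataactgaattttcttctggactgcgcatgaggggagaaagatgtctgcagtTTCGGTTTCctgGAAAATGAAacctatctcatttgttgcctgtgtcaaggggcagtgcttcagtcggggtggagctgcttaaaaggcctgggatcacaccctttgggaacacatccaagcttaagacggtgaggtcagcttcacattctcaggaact
IFI6: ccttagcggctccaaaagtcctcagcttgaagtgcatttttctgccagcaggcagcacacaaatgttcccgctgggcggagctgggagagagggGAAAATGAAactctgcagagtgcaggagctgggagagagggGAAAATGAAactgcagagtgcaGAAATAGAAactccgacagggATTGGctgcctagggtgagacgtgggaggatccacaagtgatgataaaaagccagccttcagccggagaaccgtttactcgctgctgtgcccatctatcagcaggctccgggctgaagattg
The IFI27 window held 2 cores, 1 of them read on the opposite strand, and the IFI6 window held 3 cores and 1 CCAAT box. A core was in 21 of 32 windows of interferon-stimulated genes (65.6%) and in 9 of 15 windows of MHC class I and peptide loading genes (60.0%), against 8.29% of all windows. It was in 14.97% of windows of features called higher as deposited, in 5.68% of those called lower and in 6.70% of those not called. After rescaling these shares were 10.1%, 5.86% and 5.42%, beside 6.55% of the windows of all tested features.

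**Figure D3:**
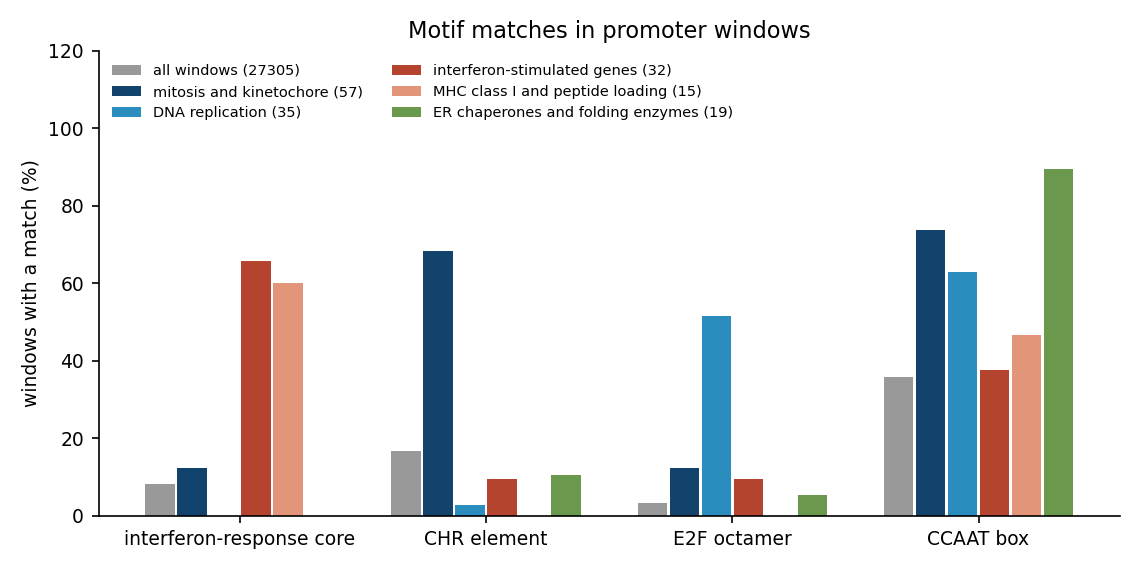
Share of promoter windows with at least 1 match (y axis, %) for 4 motifs (x axis) in all windows (grey) and in 5 gene lists, with the number of windows in brackets. The interferon-response core was in 65.6% of interferon-stimulated gene windows, the CHR element in 68.4% of mitosis windows and the E2F octamer in 51.4% of DNA replication windows.

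Genes that present peptides on MHC class I had a list median above that of all features, at -0.42 as deposited and 0.26 after rescaling. Of 18 tested, 8 were called lower and 4 higher as deposited, beside 61.5% and 7.59% of all features. After rescaling 0 were called lower and 8 higher, beside 24.2% and 23.8% of all features. B2M, the shared light chain of class I molecules, rose from 1985, 2139 and 2037 TPM to 7115, 6220 and 7654 TPM, 3.41 times in mean TPM (log2 fold change 1.76 ± 0.07 SE; adjusted p = 1.1e-10). HLA-B rose from a mean of 85.2 TPM to 157 TPM and HLA-F from 5.76 to 14.9 TPM, both called higher on both scales. The immunoproteasome subunit PSMB8 was called lower as deposited at -1.20 and was not called after rescaling. Class I members called higher as deposited were thus the heavy chains HLA-B and HLA-F, their light chain B2M and the loading protein TAPBPL.

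Chemokine genes were among the strongest rises. However, 4 of the 13 tested, CCL4 among them, were under 1 TPM in every untreated library and passed the filter only through treated libraries. CCL4, a chemokine that attracts immune cells, stood at 0.341, 0.205 and 0.293 TPM in untreated cells and at 25.9, 23.8 and 22.3 TPM at day 3, a log2 fold change of 4.29 ± 0.11 (SE; adjusted p = 1.87e-12). CCL3, a related chemokine, rose from 56.7, 48.1 and 57.5 TPM to 308, 325 and 303 TPM, 5.77 times in mean TPM. Their near-identical copies CCL3L3 and CCL4L2 were also called higher, and the counting could split reads between the copies. RGS1, which turns off chemokine receptor signals, rose from 0.54, 1.10 and 0.454 TPM to 57.6, 43.9 and 57.8 TPM (log2 fold change 5.00 ± 0.14 SE; adjusted p = 4.19e-12). Among untreated libraries RGS1 reached 1 TPM in replicate 2 only, so it too needed treated libraries to pass the filter. The receptors went the other way on the deposited scale: CXCR4 (-1.09), CCR1 (-1.23), CCR10 (-0.72) and CXCR3 (-1.41) were called lower, and CXCR3 remained called after rescaling. Among NF-κB genes, 2 of 22 were called higher as deposited, RELB (0.82) and the apoptosis inhibitor gene BIRC3 (0.78), and 13 were called lower, led by TRAF2 (-1.54) and RELA (-1.36), a share near the 61.5% of all features. After rescaling 8 were called higher and 2 lower. SELENOP, the plasma selenium carrier, rose from a mean of 0.918 TPM to 25.3 TPM and also stood among the 12 largest rises. It reached 1 TPM in untreated replicate 2 only and likewise needed treated libraries to pass the filter.

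Replication-dependent histone genes, whose transcripts normally follow DNA synthesis, rose while the replication genes fell. Of 48 listed genes 19 passed the filter, and of those 11 were called higher and 1 lower as deposited, and 16 higher and 1 lower after rescaling. H2AC7, H3C10 and H4C11 were under 1 TPM in every untreated library and passed only through treated libraries, so the filter itself favoured higher calls and these counts are a description. H2AC7 lost its call without 0 day replicate 2 or 3 and without 3 day replicate 1 or 3, at log2 fold changes of 0.90 to 1.42. Their summed level was 168 to 205 TPM in untreated cells and 833 to 874 TPM at day 3. H2AC6 rose from 4.11, 4.99 and 5.09 TPM to 106, 90.5 and 106 TPM (log2 fold change 4.15 ± 0.10 SE; adjusted p = 1.69e-12). The linker histone gene H1-2 rose from 55.01, 49.8 and 58.4 TPM to 262, 254 and 255 TPM, at 2.22 on the log2 scale. For H4C11 each untreated library was listed at 0, and the gene stood at 69.2, 74.2 and 69.0 TPM at day 3, so no fold is given. The member called lower was H3C8, from a mean of 1.15 TPM to 0.127 TPM. Histone genes of 1 type are near-identical copies, and how reads were divided between them is uncertain for each single gene.

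Small noncoding RNAs that lack a poly(A) tail rose as well, with a wide spread. RN7SK, the RNA that holds the elongation factor P-TEFb inactive, stood at 9.28, 5.65 and 14.1 TPM untreated and at 134, 242 and 115 TPM at day 3, a log2 fold change of 3.95 ± 0.28 (SE; adjusted p = 3.13e-08). The spliceosomal U1 gene RNU1-1 stood at 14.8, 0 and 0 TPM and then at 108, 35.6 and 27.0 TPM. In untreated cells the U2 copy RNU2-2P was listed at 0 each time, and it stood at 57.6, 62.0 and 31.99 TPM at day 3. RNVU1-7, a variant U1 gene, and SNORD3D, a U3 snoRNA, were also among the 12 largest rises. Of 1784 listed small nuclear, 7SK and 7SL features, 1766 were at 0 in all 6 libraries and 11 passed the filter, of which 7 were called higher and 0 lower on both scales in limma. RNU2-2P passed only through treated libraries, so this count too is a description. RNU1-1, RNVU1-7 and SNORD3D also fell short of 3 untreated libraries at 1 TPM, so they needed treated libraries to pass. Many of these genes have near-identical copies, and the day 3 libraries differed by more than 3 times in RNVU1-7 (42.7, 121 and 38.5 TPM).

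**Figure D4:**
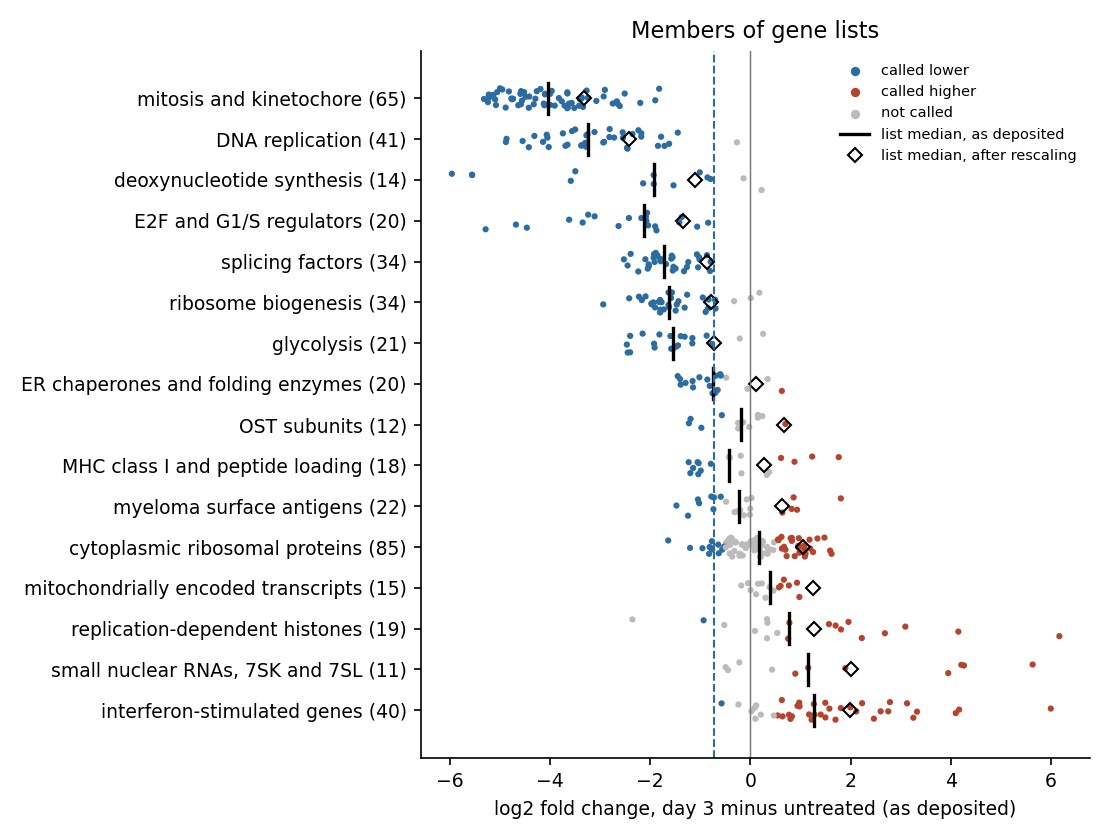
Log2 fold change of day 3 against untreated cells on the deposited scale (x axis) for each tested member of 16 gene lists (y axis, number tested in brackets), coloured by call. Black bars are list medians as deposited, open diamonds list medians after rescaling, and the dashed line the median of all tested features, -0.73; the cell division lists lie left of it and the histone, small nuclear RNA and interferon lists right of it, while the medians of the OST, MHC class I, ER chaperone and surface antigen lists change sign after rescaling.

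The genes of the complex that NGI-1 blocks had a list median above that of all features. Of the 12 OST subunits, 4 were called lower and 1 higher as deposited, and 0 lower and 8 higher after rescaling, with a median log2 fold change of -0.19 (0.67 after rescaling). STT3A, the catalytic subunit at the translocon, stood at 362, 339 and 339 TPM untreated and at 172, 194 and 161 TPM at day 3. Its fall of -0.98 ± 0.11 (SE; adjusted p = 3.11e-06) became -0.11, not called, after rescaling. STT3B, the other catalytic subunit, stood at 194, 222 and 199 TPM and then at 195, 213 and 198 TPM, with overlapping groups, and its log2 fold change was -0.02 as deposited and 0.84, called higher, after rescaling. RPN2 (-1.23), KRTCAP2 (-1.19) and RPN1 (-0.57) made up the other subunits called lower as deposited. TUSC3, an oxidoreductase subunit, was called higher on both scales, but from a mean of 0.189 TPM to 0.972 TPM. It was under 1 TPM in every untreated library and passed the filter only through treated libraries, so this call is a description.

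The genes of the steps before the transfer of the sugar chain lay near the median gene as a list. Of 32 genes of dolichol-linked oligosaccharide and sugar nucleotide synthesis, 25 were called lower and 2 higher as deposited, and 9 lower, beside 24.2% of all features, and 5 higher after rescaling. The list medians were -0.69 and 0.13. ALG9, a mannosyltransferase, fell from a mean of 22.9 TPM to 5.26 TPM (-1.95; -1.16 after rescaling). GMPPB, which makes the mannose donor, fell from 19.4 to 4.36 TPM, and DPM3 and ALG14 were the members called higher on both scales. UAP1, which makes UDP-N-acetylglucosamine, had the highest level in the list, with means of 2200.1 and 2186 TPM and overlapping groups, and was not called as deposited but called higher at 0.86 after rescaling.

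ER chaperone genes were lower on the deposited scale and close to the median gene after rescaling. Of 20 tested, 16 were called lower and 1 higher as deposited, and 3 lower and 3 higher after rescaling, with medians of -0.75 and 0.12. HSPA5, which encodes the chaperone BiP, stood at 230, 227 and 218 TPM untreated and at 106, 129 and 98.8 TPM at day 3, a fall of -1.02 that became -0.15, not called, after rescaling. CALR, which binds monoglucosylated glycoproteins, fell from 971, 956 and 939.5 TPM to 349, 434 and 317 TPM and was called lower on both scales, together with SDF2L1 and ERO1A. DNAJB9, an IRE1-XBP1 target, was the member called higher as deposited, from a mean of 57.4 TPM to 89.3 TPM. In the stress branch, DDIT3, which encodes CHOP, rose from 11.8, 10.8 and 11.3 TPM to 24.8, 21.0 and 25.5 TPM (log2 fold change 1.005 ± 0.11 SE; adjusted p = 2.2e-06). SLC3A2, an amino acid transporter chain that ATF4 drives, rose from 124 to 272 TPM in the mean. DDIT3 and SLC3A2 were the 2 of 16 sensor and ATF4-CHOP genes called higher as deposited, beside 7.59% of all features, and 4 were called lower. After rescaling 8 of the 16 were called higher, beside 23.8% of all features, and 0 lower. XBP1 was called lower, from a mean of 1547 TPM to 644 TPM, and was not called after rescaling.

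Plasma cell genes did not follow a single direction. TNFRSF17, which encodes the survival receptor BCMA, stood at 549, 577 and 606 TPM in untreated cells and at 2049, 1846 and 2172 TPM at day 3. It rose 3.50 times in mean TPM (log2 fold change 1.81 ± 0.07 SE; adjusted p = 1.32e-10; 2.67 after rescaling). JCHAIN, the chain that joins immunoglobulin polymers, rose from 8732, 10731 and 9630 TPM to 24865, 21853 and 24249 TPM, and the adhesion receptor genes CD48 and SLAMF7 were called higher on both scales. SDC1 fell to 179.8, 191 and 162 TPM and was called lower on both scales, at -1.48 and -0.61. CD38 stood at 49.3, 47.3 and 41.2 TPM and then at 41.6, 54.97 and 43.9 TPM, with overlapping groups and a log2 fold change of 0.02. Of 22 myeloma surface antigens, 8 were called lower and 5 higher as deposited, and 1 lower, which was SDC1, and 13 higher after rescaling. Over all features the shares were 61.5% lower and 7.59% higher as deposited, and 24.2% and 23.8% after rescaling.

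The transcription factors of plasma cells lay near the background. Of 10 tested, 6 were called lower in limma, beside 61.5% of all features, and after rescaling 1 was called lower and 3 higher. IKZF1, which encodes Ikaros, fell from 37.6, 37.9 and 40.3 TPM to 10.9, 12.3 and 10.7 TPM and was the factor still called lower after rescaling (-0.86). IRF4 stood at 73.1, 131 and 84.9 TPM at day 3, a fall of -1.03 that was not called after rescaling. PRDM1, which encodes BLIMP-1, stood at means of 106 and 118 TPM and was not called as deposited. The light chain genes IGKC and IGKV3-15 were called lower at -0.74 and -0.73 and moved to 0.12 and 0.14, not called, after rescaling. Their fall thus had the size of the median over all features, but was smaller than the median of -1.03 in the fifth of protein-coding genes with the highest untreated level.

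Several housekeeping lists had medians below that of all features. Over all features 61.5% were called lower and 7.59% higher as deposited, and 24.2% and 23.8% after rescaling. All 34 tested splicing factor genes were called lower as deposited and 24 after rescaling, with a median of -1.73 and 0 called higher on either scale; HNRNPD (-2.52) and HNRNPM (-2.45) fell furthest. Of 21 glycolysis genes, 19 were called lower as deposited, and after rescaling 16 lower and 2 higher. GAPDH stood at 2338, 2077 and 2122 TPM untreated and at 356, 455 and 376 TPM at day 3, 5.51 times lower in mean TPM. Of 34 ribosome biogenesis genes, 31 were called lower, and after rescaling 23 lower and 3 higher, led by TCOF1 (-2.94), which encodes treacle, a factor of ribosomal RNA synthesis. TFRC, the transferrin receptor, fell from 362, 382 and 333 TPM to 50.5, 64.0 and 44.3 TPM, at -2.75. Among chaperones of the cytosol 20 of 25 were called lower, and after rescaling 14 lower and 3 higher, with TCP1, a chaperonin subunit, at -2.41. Of 34 proteasome genes, 26 were called lower and 1 higher as deposited, with PSMD11 (-2.31) furthest down. After rescaling 11 were called lower and 7 higher, near the shares of all features.

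Ribosomal protein and mitochondrial transcripts gained share. Of 85 cytoplasmic ribosomal protein genes, 27 were called higher and 12 lower as deposited, and 66 higher and 1 lower after rescaling. RPS27 stood at 19970, 20493 and 21270 TPM untreated and at 64610, 55545 and 66225 TPM at day 3, 3.02 times higher in mean TPM. The gene called lower on both scales was RPL39L, a paralogue of RPL39 made mainly in testis and some tumours, from a mean of 38.8 TPM to 11.8 TPM, while RPL39 rose from 4252 to 13108 TPM. EEF1A1, the elongation factor that delivers tRNA and 1 of the 10 most abundant features, stood at means of 15809 and 14466 TPM and was not called as deposited. Of 15 mitochondrially encoded transcripts, 6 were called higher and 0 lower as deposited, and all 15 higher after rescaling. MT-CO1 rose from a mean of 9678 TPM to 18556 TPM, and MT-ATP8, at means of 20538 and 20399 TPM, was not called as deposited. Ribosomal protein transcripts make up a large part of the share that all other genes are measured against, and their part in the falls on the deposited scale was not tested beyond the rescaling.

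Genes of cell death moved in both directions. Of 16 tested BCL2 family genes, 5 were called lower and 5 higher as deposited, beside 61.5% and 7.59% of all features. After rescaling 3 were called lower and 8 higher, beside 24.2% and 23.8% of all features. BCL2, which protects mitochondria, rose from 3.92, 4.04 and 3.48 TPM to 10.6, 14.98 and 11.02 TPM, whereas the related BCL2L1, which encodes BCL-XL, fell from 39.0, 37.0 and 39.3 TPM to 14.2, 15.98 and 13.8 TPM. Both calls held on both scales. The BH3-only genes PMAIP1 (0.73), BBC3 (0.92) and BCL2L11 (0.54) were called higher, and the effector genes BAX (-1.73) and BAK1 (-1.54) were called lower, on both scales in each case. On the deposited scale BCL2L11 lost its call without 0 day replicate 1 (0.53), 0 day replicate 3 (0.44) or 3 day replicate 2 (0.41). MCL1, a survival factor of plasma cells, stood at 327, 378 and 352 TPM and then at 303, 352 and 274 TPM, with overlapping groups. MYC, from the immediate-early list, stood at 97.2, 83.1 and 79.8 TPM untreated and at 39.8, 65.9 and 45.4 TPM at day 3. Its fall of -0.80 was called as deposited and became 0.06, not called, after rescaling.

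Noncoding genes differed from protein-coding genes in the balance of calls. By GENCODE 29 biotype, 22.6% of 687 long noncoding RNA genes were called higher and 24.9% lower as deposited, against 5.87% and 65.8% of 10441 protein-coding genes. MALAT1, a nuclear RNA of splicing speckles, rose from 90.1, 85.5 and 77.4 TPM to 411, 382 and 378 TPM, and the snoRNA host genes GAS5 and ZFAS1 were called higher on both scales. Fold changes also went with untreated level: the median was -0.35 in the fifth of protein-coding genes with the lowest level and -1.03 in the highest. Genes were ranked here by the same untreated values that are subtracted in the fold change. The lowest group began at 0.0148 TPM, so it included genes that passed the filter only through treated libraries. Fold changes of low genes are also understated on this scale. Part of the trend with level is therefore built in, and how much was not tested. The biotypes were not compared at matched level, so the same limits apply to their shares of calls. Transcript length went with fold changes as well. The median log2 fold change was -0.60 in the fifth of protein-coding genes with the shortest summed exons (207 to 2990 bases) and -0.92 in the fifth with the longest (8363 to 46064 bases), and the shares called higher after rescaling were 31.2% and 14.9%. Whether RNA quality or library length moved with this was not tested, since the table holds no read-level measure.

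Most features were lower at day 3 than at day 2 on the deposited scale. Against day 2, 6624 features (55.5%) were called lower and 384 (3.22%) higher, and after rescaling 1624 (13.6%) lower and 1713 (14.3%) higher. All 65 mitosis genes were lower than at day 2 as deposited, and 64 after rescaling. RRM2 averaged 129 TPM at day 2, 6.63 TPM at day 3 and 1.31 TPM at day 5. IFI27 averaged 1104 TPM at day 2 and 1455 TPM at day 3 and was not called between these days as deposited, but was called higher at day 3 after rescaling. The interferon list as a whole had already risen at day 2, with a summed level of 3385 to 3558 TPM. Of its 40 tested genes, 13 were called lower at day 3 than at day 2 and 5 higher as deposited. After rescaling 1 was called lower and 14 higher. All 20 ER chaperone genes were called lower at day 3 than at day 2, and 11 after rescaling. HSPA5 averaged 280.3 TPM at day 2 and 111 TPM at day 3. The OST subunits were mixed: of 12, 5 were called lower than at day 2 and 0 higher as deposited. After rescaling 1 was called lower and 4 higher. The OST subunit DDOST averaged 546 TPM at day 2 and 254 TPM at day 3.

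Between day 3 and day 5, fewer features were called. At day 5, 1565 (13.1%) were lower and 80 (0.67%) higher, and after rescaling 242 (2.03%) lower and 529 (4.43%) higher. Of the 40 interferon-stimulated genes, 19 were called lower at day 5 as deposited and 5 after rescaling. Some features had their highest or lowest level at day 3. On the deposited scale 7 features were called higher at day 3 than in each of the other groups and 3 lower, and after rescaling 7 and 10. Among those with a mean of at least 10 TPM in their highest group were the antiviral gene SAMD9, with means of 9.91, 16.4, 25.5 and 12.97 TPM from day 0 to day 5, the granule proteoglycan gene SRGN, at 292, 470.5, 669.9 and 473 TPM, and the noncoding gene AC011995.1. FTL, the ferritin light chain, had its lowest level at day 3 on that scale, at 6764, 7939, 4389 and 6645 TPM, as did SRGAP2. SRGAP2 was no longer called lower than untreated without 0 day replicate 3 (-0.54), 3 day replicate 1 (-0.46) or 3 day replicate 3 (-0.46). After rescaling SAMD9 kept its peak, SRGN and AC011995.1 were not called different between day 3 and day 5, and neither FTL nor SRGAP2 was called different between day 3 and untreated cells.

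**Figure D5:**
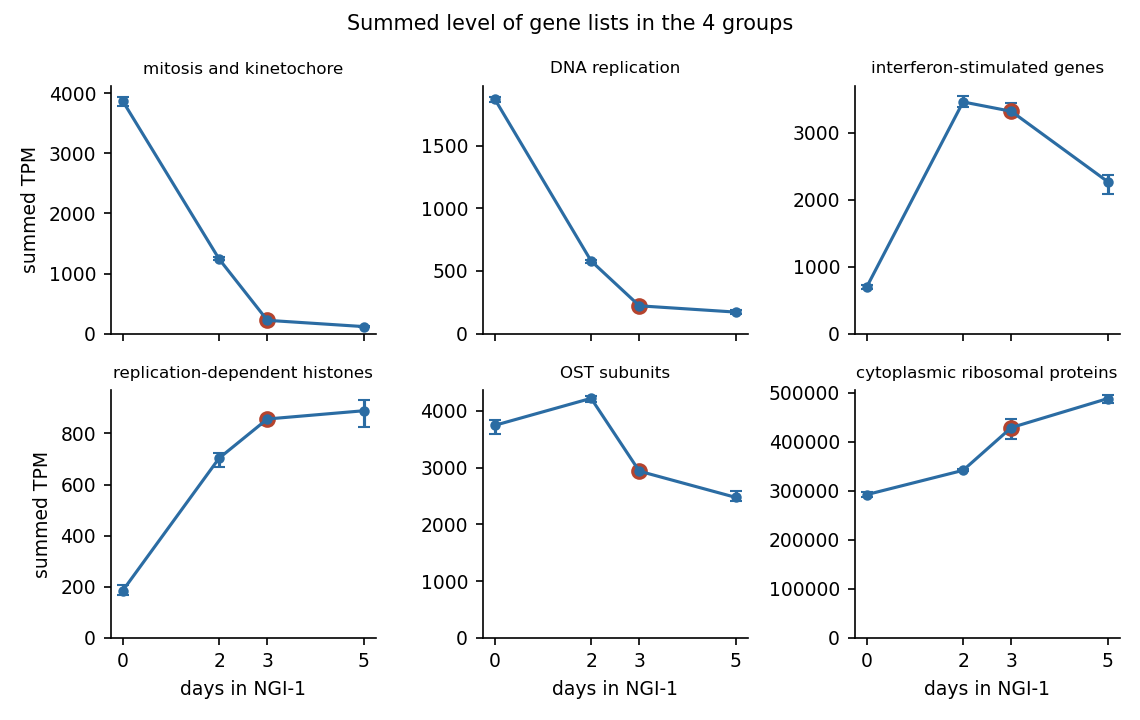
Summed TPM on the deposited scale (y axes) of 6 gene lists by days in NGI-1 (x axes), as group means with bars from the lowest to the highest of 3 libraries; day 3 is marked in red. The mitosis and DNA replication sums were lowest at day 5 and had fallen most of the way by day 3. The interferon sum lay between 3385 and 3558 TPM at day 2 and between 3256 and 3451 TPM at day 3.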

How the data were processed

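Total RNA was sequenced from 12 libraries, 3 in each group. The labels state 200 ng of RNA per library, and the submitters' processing notes name FastQC, Trimmomatic, STAR, Salmon and hg38; versions and annotation are not given in the sources used here. The authors deposited log2 of TPM plus a pseudocount of 1, by gene symbol. TPM keeps no counts, so depth behind single values is unknown and no counting interval is given. Features reaching 1 TPM in 3 or more libraries were fitted in limma 3.58.1 (R 4.3.3), 1 mean per group over all 12 libraries and a mean-variance trend, with Benjamini-Hochberg adjustment over 11939 features. The procedure was tested on simulated data. Fold changes are on the log2(TPM + 1) scale and understate those of low genes. These normalized log values allow no count test. The members, gene lists and alternatives were chosen with earlier results of these data known. Named genes were the 12 largest rises and falls with a mean of at least 10 TPM, no overlap and the same call after rescaling, the 2 largest called changes each way in each list, any member of a list with at most 20 tested, the 10 most abundant features, and features highest or lowest at day 3 (up to 5 each). Biotypes and lengths came from GENCODE 29 (GRCh38), promoters from RefSeq (GRCh38.p14). Alternatives were no filter, a minimum of 5 TPM, a pseudocount of 0.1, rescaling, leaving out the 20 most abundant features, only the 6 libraries, no trend, a threshold of 1 and leaving out each library. Protein data were not analysed here, and results on some genes are not reported here.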

Additional observations from a re-analysis of the deposited data

How the results depend on the processing

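No paired analysis was possible because the replicate numbers were given in accession order and pair no libraries. The number of features called lower was 7341 as reported, 2887 after rescaling, 4296 at a threshold of 1 and 7079 to 7575 without each library in turn; rescaled and without each day 3 library (chosen after seeing the data) it was 2716, 3100 and 2766. The number called higher was 906 as reported, 588 at a minimum of 5 TPM, 2847 after rescaling, 329 at a threshold of 1 and 842 to 912 without each library; rescaled and without each day 3 library it was 2816, 2901 and 2774. The median log2 fold change of -0.73 became -0.044 with no filter, -0.89 at a minimum of 5 TPM, -0.88 with a pseudocount of 0.1, -0.027 after rescaling, -0.56 without the 20 most abundant features and -0.79 to -0.69 without each library. After rescaling the sign turned to positive for STT3B (0.84), STAT2 (0.57), IGKC (0.12), FGFR3 (0.66), RPA3 (0.56), CD79B (0.71), IRF1 (0.25), CCR10 (0.019), RPN1 (0.30), UAP1 (0.86), IGKV3-15 (0.14), EEF1A1 (0.74), MCL1 (0.68), MYC (0.055), DDOST (0.62), FTL (0.25) and SRGAP2 (0.20). Without the 20 most abundant features it turned for STT3B (0.23), FGFR3 (0.049), CD79B (0.16), UAP1 (0.24), MCL1 (0.062) and DDOST (0.0087). Leaving out 1 library turned genes near 0: the values ran from -0.060 to 0.037 for STT3B, from -0.062 to 0.052 for UAP1, from -0.17 to 0.014 for CD79B, from -0.096 to 0.10 for CD38 and from -0.085 to 0.15 for MT-ATP8. Rescaling removes the shift common to all features by construction; the cause of the other changes was not tested. TPM keeps no depth, so counting error behind low values is unknown.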
